A study of Brachypodium distachyon with 6 samples.

Results

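In seedlings of Brachypodium distachyon, a small grass used as a model for cereals, 90 genes gave clearly fewer RNA-seq reads in the mature leaf of the bdmute mutant than in that of the wild type. They were chosen from the measured values. A gene was taken if it had at least 50 counts in every wild-type library and if its lowest wild-type value in CPM (counts per 1000000 counts of the library) was at least 1.5 times its highest bdmute value. Of the 36647 genes in the count table, 14653 met the count minimum, and the 90 genes were 0.614% of those. The quotient of the lowest wild-type CPM to the highest bdmute CPM is called the gap here. The lower level in bdmute is therefore the rule itself and not a finding.

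The wild-type group was the line Bd21-3, and the mutant group carried the allele sid/bdmute-1, the only mutant allele in the series. Both were grown for 7 days at 20 degrees on MS medium. Each library pooled 25 pieces of the second leaf, cut from 25 to 30 mm above the base, and there were 3 libraries per genotype. The labels do not say which plants went into which library. The p-values below therefore measure the spread between libraries only, and part of that spread may be technical.

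MUTE is a transcription factor of the basic helix-loop-helix family that acts in the stomatal lineage. Grass stomata consist of a pair of dumbbell-shaped guard cells flanked by a subsidiary cell on either side, and subsidiary cells exchange ions and water with the guard cells when the pore opens and closes. In Brachypodium, MUTE moves from the guard mother cell into the neighbouring cells, where subsidiary cells are then formed, and bdmute plants lack these cells. The comparison asks which transcripts of the finished leaf depend on the gene. The leaf zone is a mixture of cell types, so that fewer cells of a type and less RNA per cell cannot be told apart in these libraries.

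The files give each gene an identifier of the Bd21-3 gene set and no name. In the RefSeq gene table of assembly Brachypodium_distachyon_v3.0, with 31335 entries, 0 of them could be found. For that reason no role can be given for any of the 90 genes, no sequence is printed, and the transcript of MUTE and marker genes of the leaf tissue were not analysed here. Only 2 identifiers are printed, without the prefix BdiBd21-3 that the identifiers share. The other genes are described by their rank in wild-type CPM or in gap. CPM is not corrected for transcript length, so these ranks order the genes by their yield of reads.

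Total counts per library ran from 22910448 to 34294407, so that 1 count was worth from 0.0292 to 0.0436 CPM. The libraries numbered 3 in the count table stood apart from the others in both genotypes. The trimmed mean of M values (TMM), which scales libraries by the bulk of their genes, gave them factors of 1.16 in wild type and 1.27 in bdmute, against 0.849 to 0.962 in the other 4 libraries. By plain CPM, 66.6% of the 14653 genes were therefore highest in library 3 among the wild-type libraries.

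In sum, the 90 genes made up a small part of each library. Their CPM added up to 1776, 1773 and 2056 in wild-type libraries 1, 2 and 3, and to 505, 499 and 699 in the bdmute libraries. In percent of all counts this was 0.178, 0.177 and 0.206 in wild type and 0.0505, 0.0499 and 0.0699 in bdmute. By plain CPM, which leaves out the TMM factors, each genotype was highest in its library 3. By TMM-adjusted CPM, wild-type library 3 was the lowest of the wild type in 64 of the 90 genes and the highest in 12. In bdmute, library 3 was the lowest in 38 and the highest in 29. The 10 genes with the highest wild-type CPM held between 58.5% and 69.8% of the counts of the 90 genes in every library.

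Most of the genes were expressed at a low level. The median of their mean wild-type CPM was 6.58, with a lowest value of 1.66 and a highest of 239, while the median over the 14653 genes was 12.6. Below 5 CPM lay 37 of the 90 genes, or 41.1%, against 21.2% of the 14653 genes. From 5 to 10 CPM lay 21 genes, from 10 to 50 CPM 22 genes, and at 50 CPM or more 10 genes. In bdmute the median of the mean CPM was 1.48. Nevertheless, 0 of the 90 genes had 3 or fewer counts in all bdmute libraries, 1 gene had a count of 0 in a single bdmute library, and 38 genes had at least 50 counts in each of them. Transcripts of all 90 genes were thus still counted in the mutant.

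**Figure D1:**
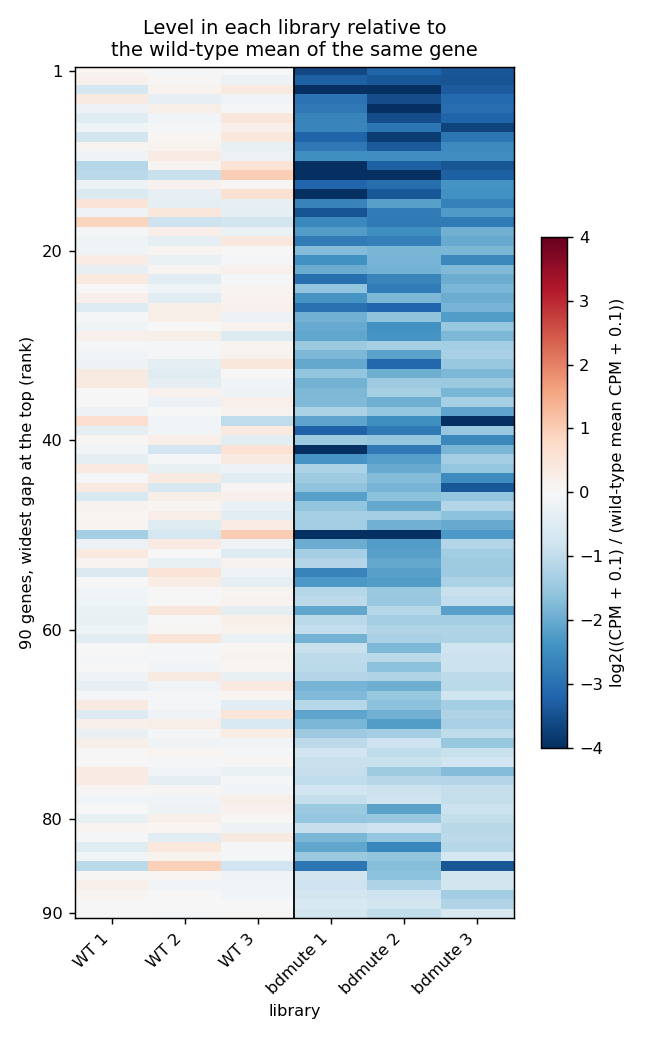
Each row is 1 of the 90 genes, sorted from the widest gap (rank 1) to the narrowest (rank 90), and each column is a library. Colour gives log2 of (CPM + 0.1) over the gene's mean wild-type CPM + 0.1, blue for lower and red for higher, with values below -4 drawn at -4. The rule makes every bdmute column bluer than every wild-type column of its row, and single rows show libraries of the same genotype that differ, such as rank 50.

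The gap ran from 1.51 to 12.5 with a median of 1.98. A gap of at least 2 was found for 44 genes, at least 3 for 21, at least 4 for 16 and at least 5 for 10. Of the 16 genes with a gap of at least 4, 8 had a mean wild-type CPM under 5 and 5 had one from 5 to 10. None of the 10 genes above 50 CPM was among them. Of all 90 genes, 37 (41.1%) lay under 5 CPM and 21 (23.3%) from 5 to 10 CPM, and a link of gap to level was not tested. The ratio of the mean wild-type CPM to the mean bdmute CPM had a median of 3.56 and ran from 1.72 to 24.7. For the ratio of counts summed over the libraries of a genotype, the lower end of the exact 95% interval was at least 1.53 in all 90 genes. This interval leaves out the spread between libraries. The same counts chose the genes, and the interval does not allow for that choice, so it is a description. The same holds for the intervals of single genes below.

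**Figure D2:**
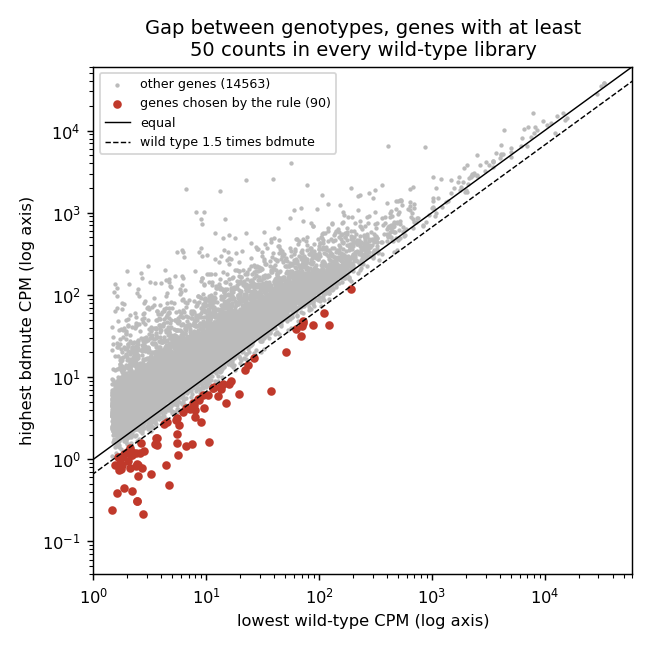
Each point is 1 of the 14653 genes with at least 50 counts in every wild-type library, at its lowest wild-type CPM (horizontal, log axis) and its highest bdmute CPM (vertical, log axis). The 90 chosen genes, in red, lie below the dashed line by construction, and their wild-type levels span the lower part of the range, up to 239 CPM on average.

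The widest gap belonged to 2G0602200. Its CPM was 2.97, 2.72 and 2.77 in wild-type libraries 1, 2 and 3, and 0.140, 0.218 and 0.171 in the bdmute libraries. The counts behind these values were 102, 84 and 86 in wild type and 4, 5 and 5 in bdmute. The wild-type libraries were even, at 2.82 ± 0.134 CPM, against 0.176 ± 0.0396 CPM in bdmute (mean ± SD, n = 3). The highest bdmute CPM was 1.56 times the lowest, and with so few counts evenness in bdmute cannot be judged. The ratio of summed counts was 16.3, with an exact 95% interval from 9.55 to 30.2 for counting error. The log2 fold change fitted by edgeR was -4.15 ± 0.35 (SE).

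The gene with the second widest gap, 9.48, varied more among its wild-type libraries. It had 6.18, 5.74 and 4.63 CPM in wild type and 0.488, 0.436 and 0.411 CPM in bdmute. The gene with the fifth widest gap had a higher level, at 10.5, 14.6 and 11.9 CPM in wild type, and 1.6, 0.567 and 1.4 CPM in bdmute. The seventh had the highest wild-type level of the 16 genes with a gap of at least 4, at 37.4, 40.5 and 48.6 CPM against 6.73, 5.54 and 3.15 CPM in bdmute. By plain CPM, this gene was highest in wild-type library 3 and lowest in bdmute library 3, so the genotypes were farthest apart there. By TMM-adjusted CPM its wild-type values were 44.1, 46.8 and 41.8, so library 3 was the lowest of the wild type.

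Of the 90 genes, 1G0599400 had the highest wild-type CPM, and its gap of 1.65 was among the narrower ones. It had 193, 229 and 294 CPM in wild-type libraries 1, 2 and 3, and 87.8, 92.4 and 117 CPM in the bdmute libraries. The means were 239 ± 51.1 and 99.1 ± 15.7 CPM (SD, n = 3), and library 3 was the highest in both genotypes by plain CPM. The TMM-adjusted CPM was 228, 264 and 253 in wild type and 91.3, 96.8 and 92.2 in bdmute. By that measure library 2 was the highest in both genotypes. With 2118 to 9140 counts per library, counting error was small, and the exact 95% interval of the ratio of summed counts ran from 2.32 to 2.44. The fitted log2 fold change was -1.41 ± 0.21 (SE).

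The next genes by wild-type CPM had wider differences and also varied more. The second had 224, 123 and 162 CPM in wild type and 21.1, 27.0 and 42.5 CPM in bdmute, a ratio of means of 5.61. The third had 139, 89.3 and 227 CPM in wild type and 6.10, 20.8 and 42.7 CPM in bdmute. Its bdmute libraries thus differed among themselves by more than the gap of 2.09 that separated the genotypes.

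The fourth by wild-type CPM had 147, 176 and 110 CPM in wild type and 29.3, 30.6 and 60.6 CPM in bdmute, with bdmute library 3 apart from the other two. The fifth had 68.6, 84.3 and 120 CPM against 9.52, 12.6 and 31.8 CPM, again with bdmute library 3 the highest. The seventh, eighth and ninth, by contrast, were even in both genotypes and had low ratios of means, of 1.72, 1.98 and 1.81. The tenth combined an even wild type, at 51.3, 58.7 and 63.9 CPM, with a ratio of means of 3.86.

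**Figure D3:**
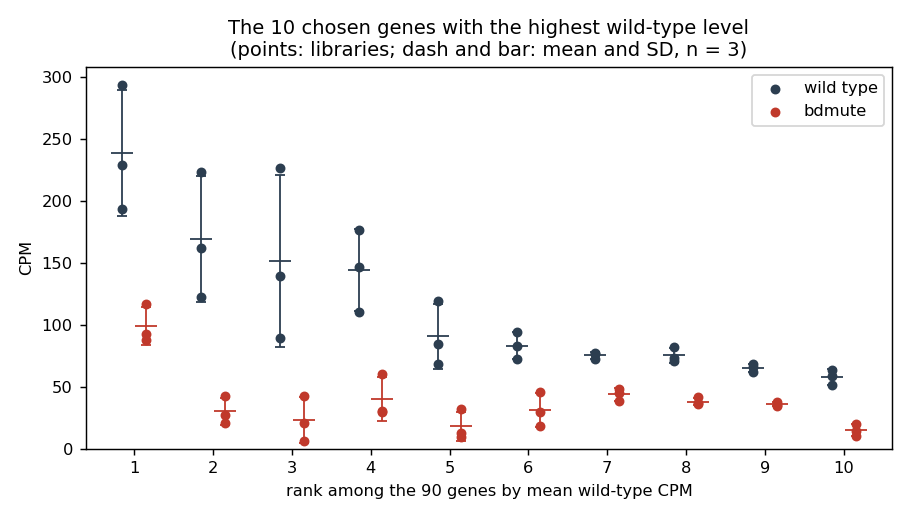
CPM in each library (points) of the 10 chosen genes with the highest mean wild-type CPM, ordered by that mean; dashes and bars give the mean and SD of 3 libraries per genotype. The genotypes do not overlap, as the rule asks, and the spread among wild-type libraries is wide for rank 3 (89.3 to 227 CPM) and narrow for rank 7 (72.1 to 77.5 CPM).

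Values ran on across the limits of the rule without a break. The 3 genes just inside the gap had gaps of 1.51, 1.54 and 1.54, and the 3 just outside had 1.4992, 1.49 and 1.48. The first gene inside had 76.4, 72.1 and 77.5 CPM in wild type and 45.4, 38.2 and 47.9 CPM in bdmute. The second gene outside had 30.4, 34.7 and 31.6 CPM in wild type and 15.1, 17.2 and 20.5 CPM in bdmute. There were 14 genes with a gap from 1.5 to under 1.6, and 20 genes from 1.4 to under 1.5. At the count minimum, a gene with wild-type counts of 62, 49 and 66 and bdmute counts of 5, 1 and 6 was left out, although its gap was 7.73. A gene with wild-type counts of 50, 60 and 90 and bdmute counts of 7, 2 and 4 was taken, with a gap of 5.97.

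The genes also differed in how even they were within a genotype. The highest wild-type CPM was less than 1.5 times the lowest in 44 of the 90 genes (48.9%), against 32.0% of the 14653 genes. It was at least 2 times the lowest in 12 genes (13.3%), against 32.0% of the 14653. A gap is harder to reach for a gene whose libraries scatter, so the rule itself favours even genes and this difference was not tested. In bdmute the highest CPM was at least 2 times the lowest in 33 genes. The share of the 14653 genes was not worked out for bdmute. Of the 90 genes, 52 had fewer than 50 counts in some bdmute library, so the count of 33 is not comparable with the wild type. Both genotypes were even, with less than 1.5 times between their libraries, in 17 genes, whose median gap was 1.76, against 2.02 in the other 73.

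A few of the genes combined the difference between genotypes with a wide one between library numbers. The gene ranked 12 by wild-type CPM had 15.9, 25.1 and 82.4 CPM in wild type and 0.593, 1.05 and 8.22 CPM in bdmute. In both genotypes library 3 was the highest, and its ratio of means was 12.5 although its gap was 1.93. The gene ranked 16 did the opposite, with 40.5, 23.7 and 12.6 CPM in wild type and 5.83, 4.58 and 0.925 CPM in bdmute. The gene ranked 18 was highest in library 2 of both genotypes, at 11.5, 47.8 and 14.6 CPM and 3.21, 7.42 and 2.23 CPM.

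A difference of the libraries numbered 3 from the other 4 was tested in edgeR with genotype in the model, over all 20998 genes that passed a filter on low counts. Over all of these genes, 4.95% were called at an adjusted p-value under 0.05. Of the 90 genes, 2 were called, the genes ranked 12 and 16 by wild-type CPM, no larger a share than among all genes. The first was higher in the libraries numbered 3, where 2.29% of all genes were called, with a log2 difference of 2.22 ± 0.39 (SE). The second was lower there, where 2.66% were called, with a log2 difference of -2.24 ± 0.39 (SE). Their adjusted p-values were 0.0391 and 0.0386 (edgeR, quasi-likelihood, adjusted by Benjamini-Hochberg). The count of called genes was 0 in 5 of the 6 fits that each left out a library and 6 in the fit without wild-type library 2. Over all genes, that fit called 18.96% and the other 5 called from 0% to 0.309%, so the count of the 90 moved with the share of all genes.

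Short of the threshold, the 90 genes lay on the lower side in the libraries numbered 3. The log2 difference was negative for 67 of them and had a median of -0.32, against 0.02 over the 20998 genes. With total counts in place of TMM the medians were 0.11 and 0.44, so that the sign of the genes' median flipped while its distance to the median of all genes stayed alike. The libraries numbered 3 took part in the choice of the genes, so this is a description. Taken by genotype, the median was -0.42 in wild type and -0.12 in bdmute (log2 of TMM-adjusted CPM + 0.1, library 3 over the mean of libraries 1 and 2). Library 3 was the lower in both genotypes for 49 genes and the higher in both for 14, and for 24 genes it was lower in wild type and higher in bdmute. The values of the 2 genotypes had a Pearson's r of 0.62 across the 90 genes and of 0.72 across the 14653 genes. All genes share the 6 libraries and their scaling, so these values are descriptions.

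**Figure D4:**
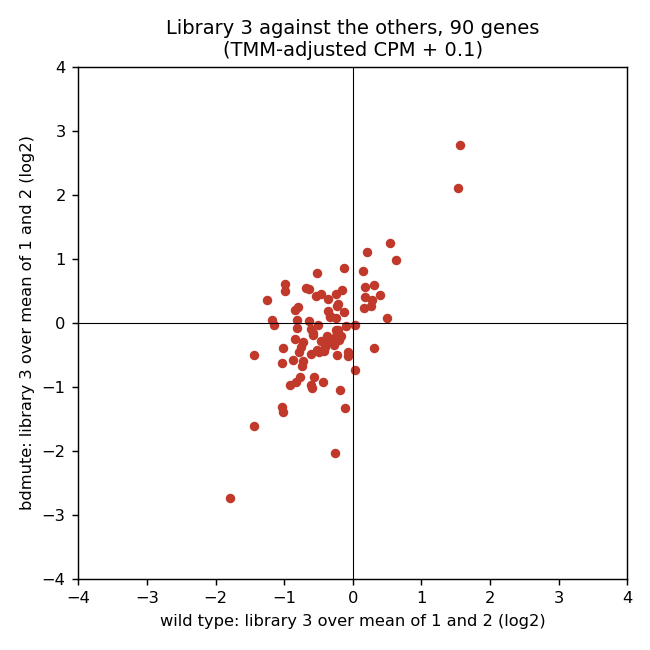
Each point is 1 of the 90 genes, with the log2 ratio of library 3 to the mean of libraries 1 and 2 in wild type (horizontal) and in bdmute (vertical), from TMM-adjusted CPM + 0.1. Most points lie left of 0, with 49 in the lower left part, and the gene ranked 12 by wild-type CPM lies at the upper right and the gene ranked 16 at the lower left.

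The median difference between the genotypes was of similar size in each pair of libraries with the same number. The ratio of wild-type to bdmute CPM had a median over the 90 genes of 3.49 for number 1, 3.80 for number 2 and 3.14 for number 3. Over the 14653 genes these medians were 0.881, 0.902 and 0.930. The rule itself puts all of these ratios of the 90 genes at or above its limit on the gap. The same values chose the genes, so the distance from the medians of all genes is not a finding. The medians of the 90 genes are descriptions. The narrowest of the 3 ratios was that of number 3 in 44 genes, and the widest was that of number 2 in 47.

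Since all libraries entered the choice of the 90 genes, the rule was also applied to the libraries of 2 numbers alone, and the chosen genes were read in the pair left out. The pair left out gives 1 library per genotype and therefore no test. Without number 1 the rule chose 187 genes, and in that pair 150 of them (80.2%, exact 95% interval from 73.8% to 85.7%) had a wild-type CPM at least 1.5 times that of bdmute. Of all 15229 genes with the same count minimum, 6.08% did. Here and for the other numbers, all genes were not matched to the chosen ones in level. The chosen genes had a median ratio of 2.70 in the pair left out, against 0.876 for all genes, and 3 of them were at least 1.5 times higher in bdmute. The intervals cover counting of genes only, and genes are not independent of each other.

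Without number 3 the rule chose 296 genes, and 173 of them (58.4%, from 52.6% to 64.1%) passed the same limit in the libraries numbered 3, against 8.04% of 14865 genes. Here 18 chosen genes (6.08%) were at least 1.5 times higher in bdmute, against 13.0% of all genes. Without number 2 the rule chose 216 genes, and 115 of them (53.2%, from 46.4% to 60.04%) passed the limit in the libraries numbered 2, against 12.3% of 15119 genes. In this pair, however, 45 chosen genes (20.8%) were at least 1.5 times higher in bdmute, close to the 19.03% of all genes. The 90 genes are part of all 3 lists and pass the limit in each by the full rule. Besides them, 60, 25 and 83 genes passed the limit in the pair numbered 1, 2 and 3, respectively, and missed the full rule on a library of that pair.

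**Figure D5:**
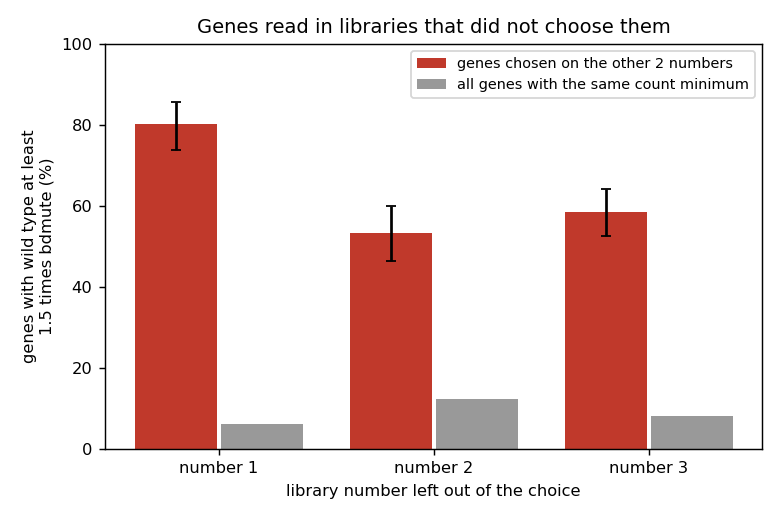
Percent of genes whose wild-type CPM was at least 1.5 times their bdmute CPM in the pair of libraries left out of the choice. Red bars are the 187, 216 and 296 genes chosen on the other 2 numbers, with exact 95% binomial intervals over genes, and grey bars are all genes with the same count minimum; the red bars stand at 80.2%, 53.2% and 58.4%, the grey ones at 6.08%, 12.3% and 8.04%.

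The tests of genotype use the contrast that chose the genes, so their results on the 90 genes are descriptions. Of the 14653 genes, 440 (3.00%) had every wild-type library above every bdmute library in CPM, and the 90 genes were those with the wider gaps. In edgeR's quasi-likelihood test 0 of the 90 genes passed an adjusted p-value of 0.05 (n = 3 libraries per genotype), as had 0% of all 20998 genes. Their adjusted p-values in this edgeR test ran from 0.0873 to 0.799 with a median of 0.265. All 90 had an unadjusted p-value under 0.05 in edgeR, while 2.99% of all genes had one and were lower in bdmute. DESeq2 called 76 of the 90, beside 0.782% of all genes in either direction. The edgeR log2 fold changes ran from -4.75 to -0.94 with a median of -1.98, against 0.02 over all genes, and their standard errors had a median of 0.35.

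With a term for the libraries numbered 3 in the edgeR model, 16 of the 90 genes passed the threshold, against 0.0810% of all genes called lower. Most of the 16 shared an adjusted p-value of 0.0493 in this edgeR fit, just under the threshold, and the lowest was 0.0408. The count of 16 therefore depends closely on the threshold. All but 1 of the 17 genes that this fit called lower in bdmute were thus among the 90. These 16 genes had gaps from 1.69 to 12.5 with a median of 4.797, and 10 of them had a gap of at least 4. For 2G0602200 the adjusted p-value was 0.0873 in the edgeR test without the term and 0.0465 with it. For 1G0599400 it was 0.173 and 0.0658 in the same edgeR fits.

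In the authors' deposited table, whose column names are those of DESeq2, 143 genes were lower in bdmute at an adjusted p-value under 0.05, or 0.583% of the 24539 genes with an adjusted p-value. The 90 genes included 76 of these (84.4% of the 90 and 53.1% of the 143). The other 14 of the 90 had adjusted p-values from 0.0528 to 0.397 in the authors' deposited table, and 13 of them had a gap under 2. Of the 67 genes called lower in the authors' deposited table that the rule left out, 35 missed the count minimum, of which 32 had a gap of at least 1.5. The remaining 32 had enough counts and a narrower gap, and in 30 of them the genotypes still did not overlap. In the authors' deposited table, 2G0602200 had a log2 fold change of -4.21 with an adjusted p-value of 6.36e-12, and 1G0599400 had -1.42 with 1.12e-13.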

How the data were processed

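Per the labels' protocols, total RNA was purified on columns with DNase digestion and made into messenger RNA libraries. The authors deposited raw counts per gene, and per the file headers these came from alignment files. Bowtie2, FastQC and DESeq2 are named in the submitters' processing notes. The counting tool, genome build, annotation version and strand setting are not given in the sources used here, so reads of duplicated, overlapping or antisense genes may have been divided or lost. The authors' deposited table gives, per the file headers, a mean normalized count (a signal), a log2 fold change and its standard error, a Wald score and p-values before and after adjustment. DESeq2 run here with default settings, bdmute over wild type, matched its log2 values within 5.19e-05 and its adjusted p-values within 0.000711, which fixes the direction.

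The labels number the libraries 1, 2 and 5 and the columns of the counts 1, 2 and 3. Columns 1 and 2 were matched to samples, and column 3 to its genotype only. Chi-square per degree of freedom was 44.1 for the closest libraries of a genotype, so none was a copy of another.

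CPM used column totals. Tests used edgeR 4.0.16 in R 4.3.3 (filterByExpr, TMM, glmQLFit and glmQLFTest), with Benjamini-Hochberg adjustment over all 20998 genes tested and a threshold of 0.05, which all 90 genes entered. Standard errors are the absolute log2 fold change over the square root of F. Only the edgeR model with the third-library term was tried on simulated data, for both contrasts, and the other fits were not. Alternatives were DESeq2 1.42.0, other scalings, filters and limits, a replicate block, a third-library term, a likelihood-ratio test and fewer libraries. The libraries numbered 1 and 2 alone were added later. The genes, limits and tests were chosen with earlier results of these data known. The identifiers printed are the gene with the highest wild-type CPM and the one with the widest gap; ranks stand for the others, and the genes ranked 12, 16 and 18, which differ between library numbers, were chosen after their values were seen. Planned lists of stomatal, photosynthetic and hair cell markers were left out, since no identifier matched a name.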

Additional observations from a re-analysis of the deposited data

How the results depend on the processing

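The number of genes chosen depended on the limits. In place of 90 it was 158 with at least 10 counts, 56 with at least 100 counts, 162 with the lower limit tried on the gap and 44 with a gap of 2. With TMM scaling it was 122, of which 78 were among the 90, and the 12 others of the 90 had gaps of at most 1.79 and kept genotypes that did not overlap. Leaving out 1 library gave from 121 to 203 genes, and the count was 203 with bdmute library 3 left out, 170 with wild-type library 3 left out and 144 with wild-type library 1 left out. The libraries numbered 1 and 2 alone gave 296. A rule on fewer libraries is easier to meet, so these counts can only rise.

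Of the 90 genes, edgeR's quasi-likelihood test called 0 between genotypes in the main comparison, with DESeq2's size factors, with total counts, without a filter, from only the libraries numbered 1 and 2, and with any 1 library left out, while 89 or 90 had an unadjusted p-value under 0.05 there. DESeq2 called 76, the likelihood-ratio test 69 and the third-library term 16, where 0.782%, 0.762% and 0.11% of all genes were called. Between the libraries numbered 3 and the others, in place of 2, the count was 8 with DESeq2, 4 with DESeq2's size factors, 8 with total counts and 4 without a filter, where 14.5%, 5.21%, 24.6% and 5.89% of all genes were called. Leaving out 1 library gave from 0 to 6 genes, with 6 without wild-type library 2 and 0 without any other single library, where 18.96% and from 0% to 0.309% of all genes were called. The cause was not tested.

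With the replicate block, asking for the gap within each library number gave 221 genes. The replicate block in edgeR called 0 of the 90 genes between genotypes and 3 between the libraries numbered 3 and the others, where 0% and 8.30% of all genes were called. The distances of the wild-type and the bdmute library of a number from their genotype's mean were compared across the tested genes. Their correlations were 0.73, -0.19 and 0.74 for numbers 1, 2 and 3. Libraries of the same number thus varied alike for numbers 1 and 3 and not for number 2. The distances within a genotype are tied to each other through its mean, so the 3 correlations are not independent. The value for number 1 cannot be read apart from that for number 3. The labels do not say whether the numbers pair the libraries, and the main test between genotypes left the number out.

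A gap of 2 in the choice raised the shares in the pair left out to 91.1%, 68.2% and 70.3% for numbers 1, 2 and 3. The median log2 fold change of the 90 genes stayed negative in the 12 alternatives computed for it, from -2.17 to -1.82, which the choice of the genes fixes.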

Other observations

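In identifiers of this style the first number stands for the chromosome. The 90 genes were spread over all 5 numbers, with 22 genes for number 1, 24 for number 2, 22 for number 3, 13 for number 4 and 9 for number 5. In shares of the 90 this was 24.4%, 26.7%, 24.4%, 14.4% and 10%, beside 30.2%, 22.7%, 23.2%, 14.8% and 9.10% of the 14653 genes with enough counts.

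In the order of the table, 4 of the 90 genes formed 2 pairs of direct neighbours. In the first pair, on number 1, one gene had 1.78, 2.27 and 3.12 CPM in wild type and 0.384, 0.436 and 0.856 CPM in bdmute, and its neighbour had 2.45, 4.47 and 5.21 CPM against 0.140, 0.0436 and 0.308 CPM. In both, wild-type library 3 was the highest by plain CPM. By TMM-adjusted CPM the neighbour was highest in wild-type library 2, at 5.17 against 4.48 in library 3. In the second pair, on number 2, one gene had 5.77, 8.33 and 5.6 CPM in wild type and 1.12, 1.09 and 1.10 CPM in bdmute, and its neighbour had 6.59, 8.75 and 8.04 CPM against 0.767, 0.873 and 1.44 CPM. Here wild-type library 2 was the highest in both. Whether the genes of a pair are copies of each other, or share reads, was not tested.

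The other neighbours of the 90 genes did not stand out in the same way. Of the 71 neighbours with enough counts, 3 (4.23%) had every wild-type library above every bdmute library, beside 3.00% of all 14653 genes, and their median ratio of mean wild-type to mean bdmute CPM was 0.913, beside 0.897.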
